A study of Mus musculus with 6 samples.

Results

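The kinesin genes are those whose name on the array's design is Kif or Kifc followed by a number, without control spots. The rule took 85 probes of 40 genes, out of 41174 probes with 27376 gene names. The arrays were Agilent mouse expression arrays read in 1 colour, and each took the total RNA of 1 animal: 3 male Prss54KO mice, in which the serine protease family gene Prss54 is knocked out, and 3 male WT mice. All were 6 to 8 weeks old, on a mixed 129Sv/C57BL/6 background, and gave whole testis; the sources used here state neither the deleted stretch of Prss54 nor which animals were littermates. Kifc3 is the only kinesin gene on the chromosome of Prss54, so it was set against the rest of the family.

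Kinesins are motor proteins that use ATP to move along microtubules or to take them apart at their ends. In the testis they serve meiotic and mitotic spindles, the bridges left by incomplete cytokinesis, the manchette that shapes the sperm head, and the flagellum. Others carry vesicles and organelles, best known from neurons. Most walk towards the plus end of the microtubule, whereas those of the kinesin-14 family, the Kifc genes, walk towards the minus end.

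The probes on which the account of Kifc3, Kif27, Kif4 and Kifc5b turns are shown as in the deposited files, 5′ to 3′. Positions are given on mm9, the mouse build named in the files. Each probe has 60 bases. No mm9 annotation was used, so exons and untranslated regions are not named. The first probe is printed whole and the others by 30 bases at 1 end, except that of Kifc5b, also whole, which the files place across a stretch longer than the probe. Capitals mark the 20 bases that both Kif4 probes share.
Kifc3 A_52_P10195, chr8:97627340-97627399, minus strand: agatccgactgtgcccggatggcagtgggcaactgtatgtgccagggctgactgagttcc
Kifc3 A_51_P114297, chr8:97623952-97624011, minus strand, first 30 bases: gagagcaagagcatctctatctaccctcct
Kif27 A_51_P425401, chr13:58389519-58389578, minus strand, first 30 bases: cgactgtgctttctgaagaactaaaatggg
Kif27 A_52_P201391, chr13:58389604-58389663, plus strand, first 30 bases: tccagcatcatgatctacagagaaccggac
Kif4 A_51_P254805, chrX:97922085-97922145, plus strand, last 30 bases: agtgtccctgAAAGAGGAGGACCTTGGCTG
Kif4 A_51_P254811, chrX:97922126-97922185, plus strand, first 30 bases: AAAGAGGAGGACCTTGGCTGagtgttggcc
Kifc5b A_52_P550734, chr17:27062844-27063223, plus strand: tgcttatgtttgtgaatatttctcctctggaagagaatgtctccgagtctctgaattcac

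All 40 genes had at least 1 probe well above background on 3 or more of the 6 arrays, the minimum for a probe to be tested. Of the 85 probes, 71 were above background on 6 arrays, 2 on 3 to 5 arrays, 4 on 1 or 2 arrays and 8 on none. That left 73 probes in the test and 12 out of it. Of the probes left out, 7 of 72 were aimed at RefSeq mRNAs, 4 of 9 at other cDNA clones and 1 of 4 at Ensembl transcripts. A gene was represented by its brightest probe, and its level is the log2 processed signal relative to the 75th percentile of gene spots on the same array, so that a level of 0 is that percentile. Probes bind with different strength, so the order of levels between genes is not read as an order of RNA amounts.

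Prss54 checked the labels. Its processed signal was 7381, 9466 and 8416 intensity units in Prss54KO replicates 1, 2 and 3, against 22680, 24150 and 26120 in the WT replicates. All 3 Prss54KO signals lay below all 3 WT signals, a level 2.96-fold lower in Prss54KO, although limma's adjusted p for Prss54 was 0.0714. Whether the probe lies inside the deleted part is not known, so it checks the labels and not the deletion itself. The median signal of an array was 203.1 to 219.7, and 66.2% to 74.8% of gene spots were above background. WT replicates 1 and 2 shared slide 3, WT replicate 3 shared slide 2 with Prss54KO replicates 1 and 2, and Prss54KO replicate 3 was on slide 1. The 8 markers each of spermatids, spermatocytes and Sertoli cells were all above background on enough arrays to be tested. In whole testis, fewer cells of a type and less RNA per cell cannot be told apart.

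The levels of the kinesin genes were close between the genotypes. With limma, 0 of 40 passed an adjusted p of 0.05, against 0 of all 19398 genes (0%), Prss54 included. At an unadjusted p under 0.05, 1 kinesin gene, Kif18b, was higher in Prss54KO, against 1.72% of all genes, and 1, Kifc3, was lower, against 1.58% of all genes. Of the 73 probes, 2 had an unadjusted p under 0.05 (2.74%), against 3.2% of all probes, and they are the same genes' brightest probes. The genotypes did not overlap for 4 of the 40 genes (10%), 3 higher and 1 lower in Prss54KO, against 7.71% of all genes. These shares lie near those of all genes.

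In size, too, the family was near the rest of the array. The differences were positive for 21 genes and negative for 19, with a median of 0.01 for kinesin genes and 0.01 for all genes. Within 0.1 of 0 lay 28 kinesin genes (70%, against 71.3% of all genes), and within 0.2 lay 35 (87.5%, against 89.4%). Limma's 95% interval of a kinesin gene's difference reached 0.11 to 1.08 to either side, with a median of 0.19. The median SD between mice of 1 genotype was 0.096 for kinesin genes and 0.103 for all genes.

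**Figure D1:**
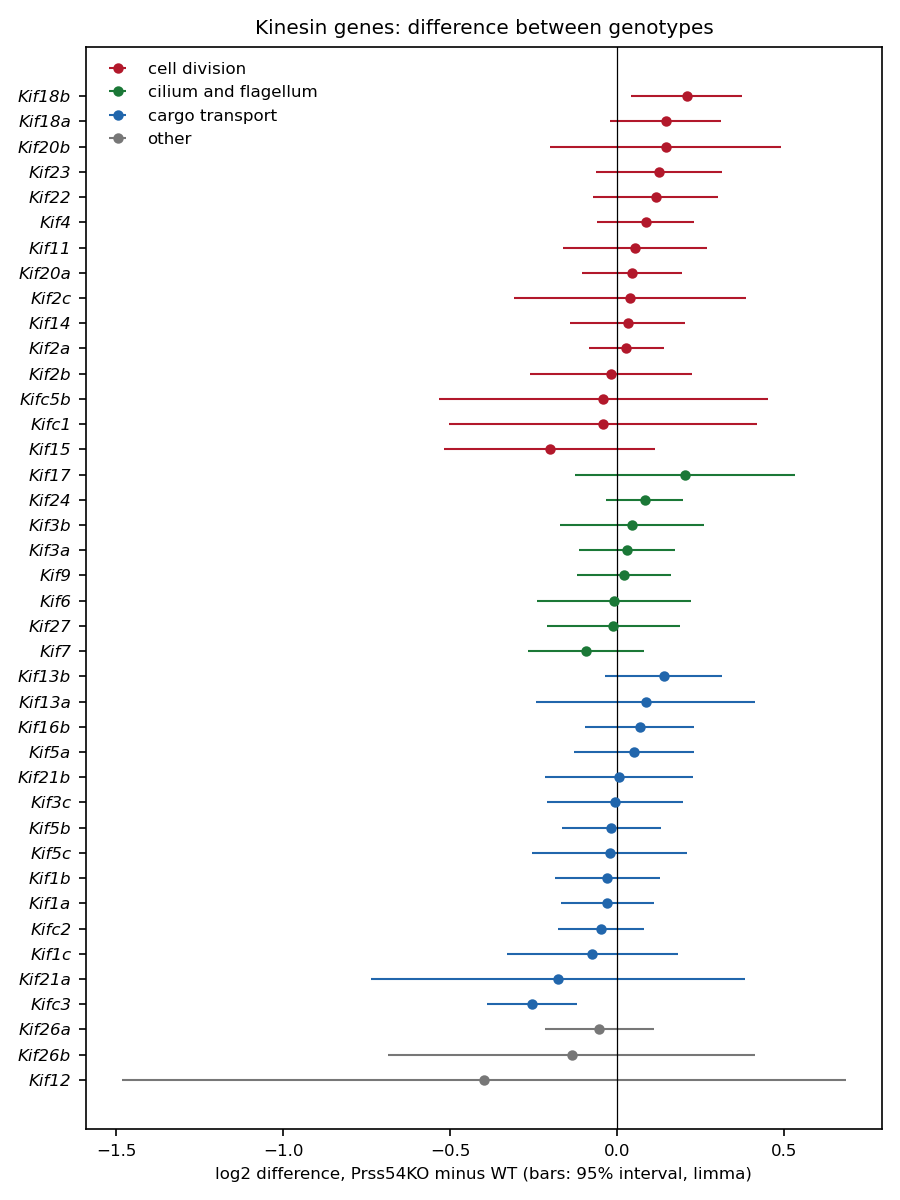
Log2 difference, Prss54KO minus WT, of each of the 40 kinesin genes (points, coloured by role), with limma's 95% interval (bars) from 3 arrays per genotype. The intervals of Kifc3, at -0.39 to -0.12, and Kif18b, at 0.04 to 0.37, do not cross 0.

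Kifc3 encodes a minus-end-directed motor of the kinesin-14 family, known from epithelial cells for transport towards the apical surface and for work at cell junctions. Its brighter probe, A_51_P114297, had levels of 0.78, 0.76 and 0.84 in Prss54KO replicates 1, 2 and 3, against 1.08, 0.98 and 1.08 in the WT replicates. All 3 Prss54KO testes lay below all 3 WT testes. The mean processed signal was 2905 ± 110.3 in Prss54KO and 3397 ± 228.8 in WT (SD, n = 3 each). The log2 difference was -0.25 (SE 0.06, 95% interval -0.39 to -0.12), a level 1.19-fold lower in Prss54KO. Limma's adjusted p was 0.99988 over all genes, and an exact two-sided permutation test of the level gave 0.1 as p, the lowest value possible with 3 mice per genotype. On slide 2 alone, which holds 1 WT array, the difference was -0.31.

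The other Kifc3 probe did not separate the genotypes. A_52_P10195, 3329 bases away, had levels of -0.09, -0.15 and -0.46 in Prss54KO and -0.11, -0.35 and 0.06 in WT. Its difference of -0.10 (SE 0.14) had an exact permutation p of 0.6, and with 1 mouse left out it ran from -0.21 without WT replicate 2 to 0.01 without Prss54KO replicate 3. The difference between the probes, 0.15, was itself within the spread between mice (exact permutation p 0.4). With the mean of the probes of a gene in place of the brightest, Kifc3 stood at -0.18, and limma's unadjusted p was no longer under 0.05. The probes lie 459 and 455.6 kb from the Prss54 probe.

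**Figure D2:**
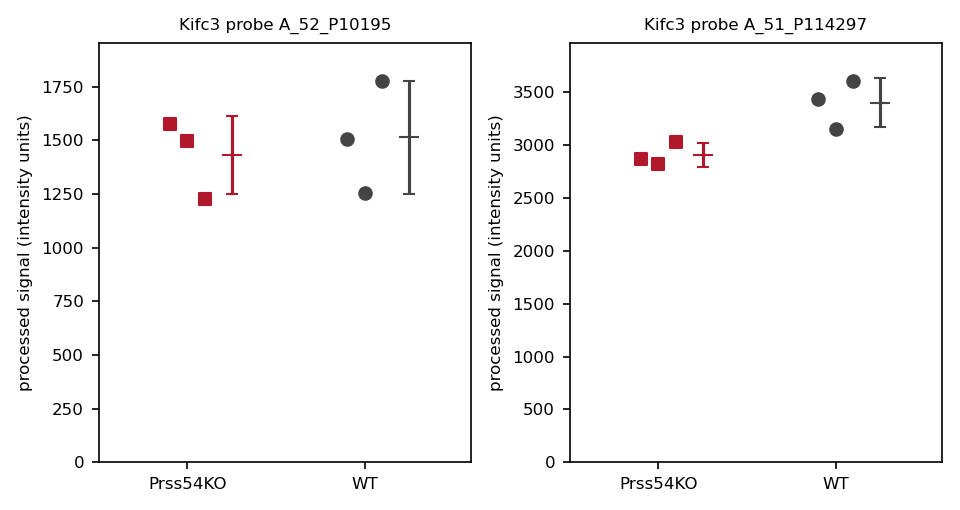
Processed signal (intensity units, axis from 0) of the 2 Kifc3 probes in each testis, Prss54KO (squares) and WT (circles), with the mean and SD of 3 beside them. For A_51_P114297 the Prss54KO signals, 2817 to 3029, lie below the WT signals, 3152 to 3605, and for A_52_P10195 they overlap.

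Set against the other 39 kinesin genes, Kifc3 stood near the low end. Of these, 1 had a lower difference, Kif12 at -0.40, and the others' differences had an SD of 0.11. With each gene centred on its mean over the arrays, a summary added once the data had been seen, Kifc3 minus the median of the other kinesins in the same testis was -0.18, -0.17 and -0.10 in Prss54KO and 0.20, 0.10 and 0.12 in WT, a difference of -0.29. All 3 Prss54KO testes lay below all 3 WT testes, with the smallest possible exact permutation p of 0.1. Without the centring, as planned, the difference was -0.44 (exact permutation p 0.1), and with the mean of each gene's probes it was -0.17 (exact permutation p 0.3). These uncentred values subtract levels of different probes and move with which probe falls at the median: the others' median difference was 0.02 and Kifc3's own was -0.25, so -0.44 is not read as the size of Kifc3's shift.

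Of the 8 marker lists, the peritubular, endothelial and Leydig cell lists had the lowest medians, the Leydig list at -0.07. Sertoli cell and spermatid markers had medians of 0.00. Per testis, the peritubular list overlapped between the genotypes, and the endothelial and macrophage list did not. All 8 peritubular and fibroblast markers had negative differences, with a median of -0.10. The list's median relative to the WT mean was -0.08, -0.26 and -0.03 in Prss54KO and -0.03, -0.10 and 0.12 in WT, and its summed signal was 39060 to 49920 in Prss54KO and 45760 to 58240 in WT. All 8 endothelial and macrophage markers were negative too, with a median of -0.08. Relative to the WT mean, that list's median was -0.05, -0.27 and -0.04 in Prss54KO and 0.02, -0.003 and 0.03 in WT. Its summed signal did overlap, at 12180 to 18450 in Prss54KO and 12500 to 17370 in WT. The markers with the smallest p were the collagen genes Col3a1 at -0.67 (SE 0.25) and Col1a1 at -0.73 (SE 0.29), the endothelial cadherin gene Cdh5 at -0.18 (SE 0.05) and the macrophage gene Cd68 at -0.18 (SE 0.16). Without Prss54KO replicate 2, Col3a1 stood at -0.39, Col1a1 at -0.41 and Cd68 at -0.0047, whereas Cdh5 stayed at -0.18. Cdh5 ran from -0.22 to -0.17 with 1 mouse left out, and from -0.23 to -0.13 over all alternatives. With the mean of its probes Col3a1 stood at -0.30. None passed limma's adjusted threshold. The part of these cells in Kifc3's difference was not tested.

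The cell division kinesins, 15 genes, had 11 positive and 4 negative differences and a median of 0.04. The largest was that of Kif18b, a kinesin-8 that trims microtubule plus ends at the spindle, with levels of 0.53, 0.44 and 0.52 in Prss54KO against 0.18, 0.36 and 0.32 in WT. All 3 Prss54KO testes lay above all 3 WT testes, with the lowest level in WT replicate 1. The difference was 0.21 (SE 0.07), 1.15-fold, with limma's adjusted p at 0.99988. It was 0.15 without WT replicate 1 and 0.16 on slide 2 alone. Kif18b has only 1 probe on the array.

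Kif18a, the other kinesin-8, which dampens the movements of chromosomes at metaphase, had levels of 0.02, -0.06 and 0.03 in Prss54KO and -0.24, -0.17 and -0.04 in WT. The groups overlapped by 1 mouse, WT replicate 3, and the difference of 0.15 (SE 0.07) was 0.02 on slide 2 alone, where that mouse is the WT. Kif23, the motor subunit of the centralspindlin complex that builds the midbody, had 0.81, 0.77 and 0.98 in Prss54KO and 0.64, 0.79 and 0.76 in WT. Its difference was 0.13 (SE 0.08), and its other tested probe gave 0.12. Kif15, a kinesin-12 that helps to hold spindle poles apart, went the other way, with 1.49, 1.40 and 1.09 in Prss54KO and 1.55, 1.37 and 1.67 in WT, a difference of -0.20 (SE 0.13). It was -0.08 without Prss54KO replicate 3, and its dimmer probe differed by 0.02.

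The remaining division kinesins overlapped between genotypes, except Kif2a. Kif2a, a kinesin-13 that takes tubulin off microtubule ends, had 2.16, 2.17 and 2.16 in Prss54KO and 2.11, 2.14 and 2.16 in WT (2.155 in the highest WT testis, 2.160 in the lowest Prss54KO testis). Although its groups did not overlap, its difference was 0.03 (SE 0.05), and only 0.5% of genes varied less within genotypes. Its other probes gave -0.06 and 0.07, with overlap between the genotypes. The chromosome-arm motor genes Kif22 and Kif4 stood at 0.12 (SE 0.08) and 0.09 (SE 0.06). Both Kif4 probes, which overlap and so are not independent, were positive, at 0.12 and 0.09. Kif20b, a cytokinesis motor gene, stood at 0.15 (SE 0.14), but at -0.20 on slide 2 alone. Near 0 were the bipolar spindle motor gene Kif11 at 0.05, the cytokinesis genes Kif20a at 0.04 and Kif14 at 0.03, the centromere depolymerase gene Kif2c at 0.04, and its relative Kif2b at -0.02.

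Kifc1 and Kifc5b varied together from mouse to mouse and not by genotype. Kifc1 encodes the minus-end motor that bundles spindle microtubules, and Kifc5b is a near-identical copy. Kifc1 had levels of 0.36, -0.03 and 0.32 in Prss54KO replicates 1, 2 and 3, against 0.55, -0.09 and 0.33 in the WT replicates. Kifc5b had -0.37, -0.85 and -0.51 in Prss54KO and -0.27, -0.92 and -0.42 in WT. Both were lowest in replicate 2 of each genotype, which lie on different slides. The accession field of the Kifc5b probe also lists a Kifc1 transcript, so the signal of that probe cannot be assigned to 1 of the genes. Their differences were -0.04 (SE 0.19) and -0.04 (SE 0.20).

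Partners of the division kinesins at the spindle and midbody made up a list of 20 genes, each tested singly. Of these 15 were positive and 5 negative, with a median of 0.07, and 0 passed limma's adjusted threshold (2 higher at an unadjusted p under 0.05, against 1.72% of all genes). Incenp, the scaffold of the chromosomal passenger complex, had levels of 3.86, 3.75 and 3.83 in Prss54KO and 3.63, 3.62 and 3.69 in WT, a difference of 0.17 (SE 0.05). The mitotic kinase gene Plk1 had 4.26, 4.21 and 4.29 in Prss54KO and 4.02, 4.19 and 4.09 in WT, a difference of 0.16 (SE 0.06). The groups did not overlap for these and for Ckap5, a microtubule polymerase gene that stood the other way at -0.15 (SE 0.06) and is named after its values were seen. That is 3 of the 20 genes, against 7.71% of all genes. The list's median relative to the WT mean was 0.11, -0.02 and 0.07 in Prss54KO and -0.01, -0.01 and 0.00 in WT, so Prss54KO replicate 2 lay below every WT testis.

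Per testis the division kinesins had medians of 0.08, 0.03 and 0.06 in Prss54KO and -0.04, -0.03 and 0.06 in WT, with WT replicate 3 inside the Prss54KO range. Of the 8 spermatocyte markers, 6 were positive, with a median difference of 0.04. Their medians were -0.04, -0.02 and 0.12 in Prss54KO and 0.01, 0.01 and -0.03 in WT, and their summed signal was 90720 to 100400 in Prss54KO and 82080 to 96360 in WT. Ccna1, the meiotic cyclin, stood at 0.13 (SE 0.06) and the recombinase gene Dmc1 at -0.09 (SE 0.05). The 6 spermatogonial markers tested had a median of 0.00, with Stra8, which starts meiosis, at -0.16 (SE 0.12) and Uchl1 at -0.07 (SE 0.08). The part of cell composition in the division kinesins' values was not tested.

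**Figure D3:**
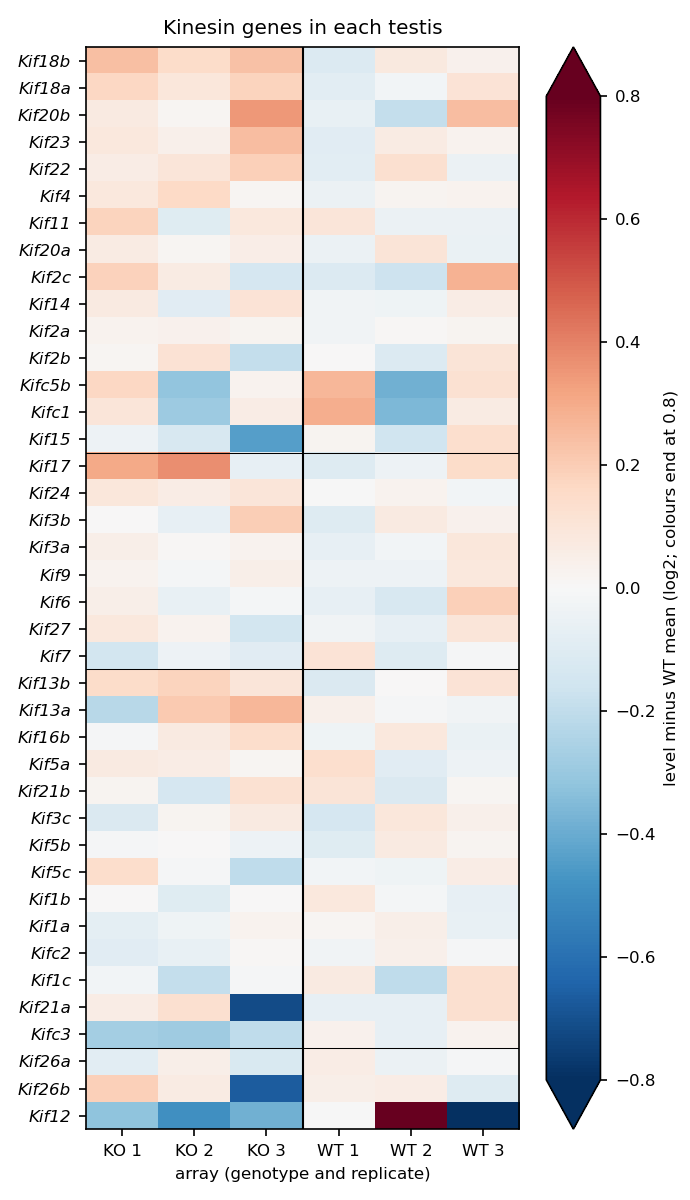
Level of each kinesin gene in each testis minus the gene's WT mean (log2, colour scale ending at 0.8), with Prss54KO arrays on the left and WT arrays on the right. Rows are grouped from top to bottom by cell division, cilium and flagellum, cargo transport, and other. Kifc3 is below the WT mean in all 3 Prss54KO testes, Kifc1 and Kifc5b are low in replicate 2 of both genotypes, and Kif21a and Kif26b are low in Prss54KO replicate 3.

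The kinesins of the cilium and flagellum, 8 genes, had 5 positive and 3 negative differences and a median of 0.02. Kif17, a kinesin-2 that in round spermatids binds the transcriptional coactivator encoded by Fhl5, had levels of 0.06, 0.13 and -0.31 in Prss54KO and -0.35, -0.29 and -0.10 in WT. Prss54KO replicates 1 and 2 lay above every WT testis and Prss54KO replicate 3 among them. The difference was 0.20 (SE 0.13), it ran from 0.12 without Prss54KO replicate 2 to 0.34 without Prss54KO replicate 3, and the 3 Kif17 probes gave 0.20, 0.19 and 0.10. Fhl5, named after its values were seen, had 3.85, 3.84 and 3.50 in Prss54KO and 3.77, 3.74 and 3.99 in WT, a difference of -0.11 (SE 0.12).

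Kif24, a kinesin-13 of the centriole that restrains cilium assembly, had -1.49, -1.53 and -1.49 in Prss54KO and -1.59, -1.56 and -1.61 in WT. The groups did not overlap and only 1.6% of genes varied less within genotypes. The difference was 0.08 (SE 0.05), and the other probe of the gene differed by -0.03. Kif7, which works at the tip of primary cilia in Hedgehog signalling, had -4.03, -3.93 and -3.98 in Prss54KO and -3.78, -3.99 and -3.89 in WT, a difference of -0.09 (SE 0.07).

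Kif3b, 1 motor subunit of the heterotrimeric kinesin-2 that drives intraflagellar transport, had 0.21, 0.15 and 0.41 in Prss54KO and 0.11, 0.28 and 0.25 in WT, a difference of 0.04 (SE 0.09). Its partner Kif3a stood at 0.03 (SE 0.06). Kif9, a motor gene of the central pair of motile flagella, stood at 0.02 (SE 0.06) and its relative Kif6 at -0.01 (SE 0.09). Kif27 was the only gene with probes on opposite strands, 25 bases apart. The minus-strand probe had 2.005, 1.95 and 1.77 in Prss54KO and 1.89, 1.85 and 2.02 in WT, a difference of -0.01 (SE 0.08), and the plus-strand probe differed by 0.05 (SE 0.08). The 8 spermatid markers had a median of 0.00, with the acrosome gene Spaca1 at 0.12 (SE 0.11) and Tnp1, a nuclear transition protein, at 0.04 (SE 0.05).

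The cargo transport kinesins, 14 genes with Kifc3 among them, had 5 positive and 9 negative differences and a median of -0.02. Kif13b, a kinesin-3 that carries signalling proteins, had levels of -1.56, -1.53 and -1.61 in Prss54KO and -1.82, -1.70 and -1.59 in WT. Its difference was 0.14 (SE 0.07), but the other tested probe gave -0.11 (SE 0.10), and the mean of both was 0.01. Kif16b, a motor gene of early endosomes, had 0.00, 0.08 and 0.15 in Prss54KO and -0.02, 0.10 and -0.04 in WT, a difference of 0.07 (SE 0.07). Kifc2, another kinesin-14, had -1.59, -1.56 and -1.50 in Prss54KO and -1.53, -1.46 and -1.51 in WT, a difference of -0.05 (SE 0.05). All 3 overlapped between genotypes.

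The heavy chains of conventional kinesin, Kif5a, Kif5b and Kif5c, stood at 0.05 (SE 0.07), -0.02 (SE 0.06) and -0.02 (SE 0.10). Of the vesicle and organelle motor genes, Kif1a and Kif1b stood at -0.03 and -0.03, Kif1c at -0.07 and Kif13a at 0.09. Kif3c stood at -0.01 and Kif21b, which regulates microtubule growth, at 0.01. Kif21a, its relative, had -0.91, -0.84 and -1.69 in Prss54KO and -1.04, -1.04 and -0.84 in WT. Its difference of -0.18 (SE 0.23) rested on Prss54KO replicate 3, without which it was 0.09, and in the other Kif21a probe that mouse, at -2.91, lay close to the other Prss54KO levels of -2.87 and -2.80.

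The light chains and adaptors that link kinesins to cargo went in both directions. Of 17 tested, 8 were positive and 9 negative with a median of -0.01, and 0 passed limma's adjusted threshold. At limma's unadjusted p under 0.05 there were 0, against 1.72% of all genes higher and 1.58% lower. In a list of this size, 0 lies near those shares. No test of the list as a whole was run. The smallest p belonged to Fez2 at -0.13 (SE 0.08) and the light chain gene Klc4 at 0.08 (SE 0.06). The sperm light chain gene Klc3 and the adaptor gene Fez1, named after their values were seen, were low in Prss54KO replicate 3. Klc3 had 3.05, 2.86 and 2.29 in Prss54KO and 2.84, 2.83 and 2.94 in WT. Fez1 had 1.66, 1.44 and 0.85 in Prss54KO and 1.40, 1.48 and 1.59 in WT.

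The other 3 genes, Kif12, Kif26a and Kif26b, had negative differences. Kif12, known from kidney and liver epithelium, had levels of -3.58, -3.74 and -3.64 in Prss54KO and -3.26, -2.31 and -4.19 in WT. The 3 Prss54KO testes lay between the WT testes, which spread over 1.88 in log2. The difference of -0.40 (SE 0.44) was 0.07 without WT replicate 2, -0.87 without WT replicate 3 and 0.53 on slide 2 alone. Kif26b, a kinesin-11 needed for kidney development, had -2.92, -3.05 and -3.78 in Prss54KO and -3.07, -3.06 and -3.22 in WT, a difference of -0.14 (SE 0.23) that was 0.13 without Prss54KO replicate 3. Kif26a, its relative, had -3.12, -2.98 and -3.16 in Prss54KO and -2.98, -3.08 and -3.04 in WT, a difference of -0.05 (SE 0.07).

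Single testes stood apart in a few genes. For each gene, only the array with the widest gap to the nearest of the other levels was counted. That gap was more than 0.2 for Prss54KO replicate 3 in Kif21a, Kif26b and Kif15, each time below. It was also more than 0.2 for WT replicate 2 in Kif12, above. By this count the remaining 4 arrays had no such gene. In Kif12, though, WT replicates 1 and 3, at -3.26 and -4.19, also lay more than 0.2 from every other level. Prss54KO replicate 3 was the only array on its slide, so mouse and slide cannot be told apart there.

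Of 25 genes with 2 or more tested probes, 12 had the same sign in all probes. In 15 the differences lay no more than 0.1 apart, with a median spread of 0.08, beside a median absolute difference of kinesin genes of 0.05. The spread was over 0.3 in 2 genes. For Kif26a, the dim probe A_51_P476150, above background on 2 Prss54KO arrays and 1 WT array, had levels of -5.83, -4.89 and -3.85 in Prss54KO and -4.97, -6.24 and -6.55 in WT. Its difference of 1.06 (SE 0.61) and the bright probe's -0.05 did not differ beyond the spread between mice (exact permutation p 0.2). For the vesicle motor gene Kif1c, 4 probes gave -0.13, -0.07, 0.02 and 0.21. The brightest had -0.82, -0.98 and -0.81 in Prss54KO and -0.72, -0.999 and -0.67 in WT, and the probe at 0.21 had -4.53, -4.43 and -4.19 in Prss54KO and -4.83, -4.62 and -4.34 in WT. The gap between the extreme Kif1c probes had an exact permutation p of 0.3.

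**Figure D4:**
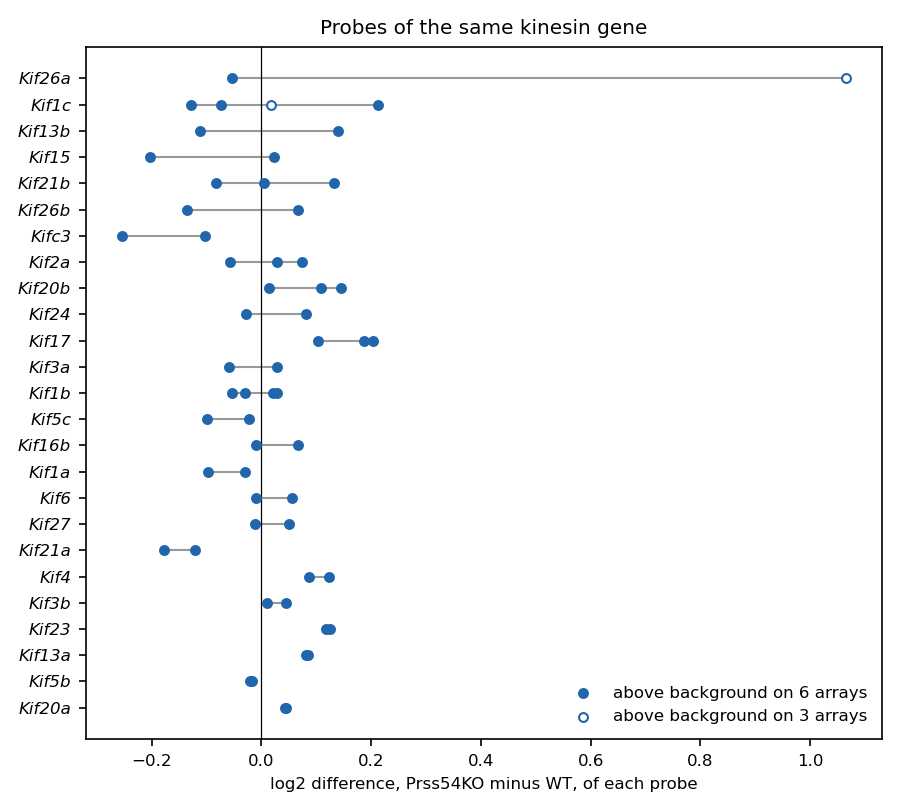
Log2 difference, Prss54KO minus WT, of each tested probe (points) of the 25 kinesin genes with 2 or more, joined by a line per gene. Open points are probes above background on 3 of 6 arrays. Kif26a has the widest spread, 1.12, from an open point.

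Other marker lists bear on the makeup of the samples. The 8 Sertoli cell markers had a median of 0.00, with the receptor gene Fshr at -0.15 (SE 0.10) and Amh at 0.22 (SE 0.26), which was -0.02 without Prss54KO replicate 3. The 7 Leydig cell markers tested had a median of -0.07, with the cholesterol carrier gene Star at -0.58 (SE 0.24) and Hsd3b1 at -0.09 (SE 0.05). Star stood at -0.37 without WT replicate 3. Of 6 epididymis markers 3 were tested, all positive, with a median of 0.20, Defb41 at 0.20 (SE 0.06) and Lcn9 at 0.52 (SE 0.26). Lcn9 stood at 0.25 without WT replicate 1 and at -0.03 on slide 2 alone. Their summed signal was 920.2 to 1023 in Prss54KO and 775.1 to 903.3 in WT. Their part in the kinesin values was not tested.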

How the data were processed

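Per the labels' protocols, 0.5 ug of testis RNA per mouse was labelled with Cy3. The deposited scanner files hold each spot's processed intensity, written by Agilent Feature Extraction 10.7.3.1 per the file headers and 10.7 per the submitters' processing notes, after the software's own background treatment. The deposited log2 table of the series, used as an alternative, has a median of 7.72 in each column and correlated with each array's log2 signal at r of 0.9991 or more. Its direction is that of the signal, and no source used here names the software behind it. The number of sample columns left unused was 0.

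Outlier spots (86 to 142 per array) were left out, and 0 gene spots were saturated. Log2 processed signals, relative to the 75th percentile of gene spots on the array, were averaged over a probe's spots. A probe was kept if it was well above background on 3 or more of the 6 arrays (28923 probes), and the brightest stood for its gene (19398 genes). Genotypes were compared over all 6 arrays by two-sided tests with the functions lmFit and eBayes of limma 3.58.1, run in R 4.3.3. P-values were adjusted by Benjamini-Hochberg over all genes, and separately over all probes, and the threshold was 0.05. The procedure was tested on simulated data, with 50 genes changed at each size. It called 1 of 50 at a log2 change of 0.25, 22 at 0.5, 35 at 1 and 48 at 2, with 6 false calls. A change of 0.25 was thus rarely called. So many changed genes ease the Benjamini-Hochberg threshold, whereas in the real data 0 of 19398 genes passed. Prss54 itself, at -1.56, had an adjusted p of 0.0714 in limma. The simulated rates are therefore not read as the rates for these data. Single values were compared by exact permutation of the 6 mice. Differences are Prss54KO minus WT in log2. The number of arrays limits the precision. P-values measure the spread between these mice. No 2 arrays held identical values.

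The members, roles and gene lists were chosen with earlier results of these data known. Values in every testis are given for Kifc3, kinesin genes at an unadjusted p under 0.05, the 4 smallest p per role, and genes whose probes differ by over 0.3. A few others are added because of their values. From each list the 2 genes of smallest p are named. All 40 names are RefSeq symbols, and 70 of 85 probes matched RefSeq (GRCm38.p6) by accession, each with the same symbol. Alternatives covered scaling, background correction, filter, probe summary, the deposited table, slide, replicate block, array weights, variance model and leaving out each mouse. Only slide 2 holds both genotypes, so the slide as a fixed block and slide 2 alone give the same difference, although they are counted as separate alternatives.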

Additional observations from a re-analysis of the deposited data

How the results depend on the processing

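Under 19 alternatives 0 kinesin genes, and under 18 (all but the mean of a gene's probes) 0 kinesin probes, passed limma's adjusted threshold, as also with each mouse left out in turn (0 to 0). At an unadjusted p under 0.05 there were 1 to 5 kinesin genes, 5 without WT replicate 3 (Kif12, Kif13b, Kif18a, Kif18b and Kifc3), 3 without WT replicate 2, and 1 with the slide as a fixed block, with the mean of a gene's probes and without WT replicate 1. The kinesin median difference of 0.01 became -0.0177 with the slide as a fixed block and on slide 2 alone, where 12 of the 40 genes changed sign, 3 of them at 0.1 or more before; the cause was not tested. It ran from -0.004 to 0.032 with 1 mouse left out and was -0.006 with median scaling, which put all genes at -0.01.

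Kifc3 ran from -0.31 (slide 2 alone and the slide as a fixed block) to -0.18 (mean of its probes, the only alternative with an unadjusted p over 0.05), from -0.29 to -0.24 with 1 mouse left out, and its lowest limma adjusted p was 0.536. Relative to the other kinesins it ran from -0.50 to -0.17, and from -0.50 to -0.39 with 1 mouse left out. Array weights, the intensity trend and the slide as a random block give no separate value of that measure. Kif18b ran from 0.15 to 0.25, with an unadjusted p under 0.05 in 13 of 19 alternatives. The comparison did not pair same-numbered mice. Their deviations correlated at r of -0.037, 0.024 and -0.163, and those of differently numbered mice at -0.178 to 0.176. Such values cannot show whether any of the animals were related. With the replicate number as a block, 0 kinesin genes and 0 probes were called, the kinesin median was 0.01, Kifc3 stood at -0.25 relative to WT and at -0.44 relative to the other kinesins, and 1 gene had an unadjusted p under 0.05.

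Single gene and probe values, and the count of kinesin genes at an unadjusted p under 0.05, gave 1195 values under the alternatives. Of these, 1142 counted as unmoved. For a gene or probe this meant a move of less than the SD between mice, and for the count a change within a set fold. Leaving out a mouse cannot move a difference that far, and the replicate block and the variance model leave it unchanged by design. Such values count as unmoved whatever the data, even where the sign changed, as for Kif12 (-0.40, and 0.07 without WT replicate 2). The count of unmoved values is therefore not read as a measure of stability. Signal over background kept 12 of the 85 kinesin probes out of the test.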
